A study of Mus musculus with 3 samples.

Results

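The genes examined encode the proteins of the splicing machinery and the hnRNP proteins that coat nascent transcripts. They were chosen by name, as every gene symbol in the table analysed here that begins with *Snrp*, *Sf3a*, *Sf3b* or *Hnrp*. Symbols that begin with *Sfrs*, *Srsf* or *Prpf* and a number, or that consist of *Lsm* and a number, were taken too. The choice used no measured value, and it gave 74 of the 30854 symbols. Total RNA had been taken from the embryonic region of wild-type mouse embryos (strain Cd-1 in the sample labels, ICR in the methods) at the early headfold (EHF) stage, in which head folds and node have formed. The embryos had been bisected at the boundary with the extraembryonic region, and 3 Illumina bead arrays, replicates 1, 2, and 3, form the only group. No other genotype, stage or tissue was measured, so every comparison is with the background of the same array or with the other symbols on it. The sources leave unclear if the RNA on an array came from 1 embryo or several, and SD values measure only the spread between these 3 arrays. Standard errors of fitted levels are 1 value shared by all symbols, and errors over beads measure spread within an array.

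Introns are removed by the spliceosome, which assembles on each intron from small nuclear ribonucleoproteins (snRNPs) and many further proteins. Each snRNP is built on a ring of Sm or LSm proteins, the SF3a and SF3b complexes hold the U2 snRNP at the branch point, and the PRPF proteins belong largely to the later complexes that carry out the reaction. SR proteins bind exons and recruit the machinery to them, whereas hnRNP proteins often oppose them, and the balance between both families influences which exons are used. Dividing cells of the early embryo transcribe and splice actively, and most of these genes are regarded as housekeeping genes.

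Markers of several tissues were above background on the arrays. Markers of the embryonic region were above background for 12 of 15 symbols, among them the endoderm gene *Sox17* but not *Foxa2*, *Six3*, and *Hesx1*. Embryonic blood markers were above background for 0 of 5. Visceral endoderm markers were above background for 13 of 14 symbols and extraembryonic ectoderm markers for 5 of 11. These calls do not show how far the samples were free of extraembryonic tissue. The authors deposited a log2 signal per symbol, averaged over its probes, and a detection p. With 1 probe, the detection p is the share of negative-control probes with a signal at least as high. With several probes it is a combined value whose rule is not given in the sources, so the same threshold can differ in meaning. Symbols were called above background where each of the 3 arrays gave a detection p under 0.01. The median signal of an array was between 6.42 and 6.57, and between 7191 and 9015 symbols met the threshold on a single array, fewest on replicate 3. Probes differ in hybridization, and no gene's signal is ranked against that of another gene.

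Splicing factor and hnRNP genes were above background far more often than the symbols of the arrays in general. Of the 74 members, 50 (67.6%) were called, whereas 20.6% of all 30854 symbols were. On at least 1 array, 55 members passed, and 33% of all symbols did. For 44 of the 50 the detection p was 0 on each array. The median of the mean log2 signal was 8.56 over the 74 members and 6.49 over all symbols. A second criterion, the one-sided test of limma for a normalized level above the background level of the same array, called 57 members and 25.7% of all symbols (adjusted p under 0.05). The largest adjusted p from limma among the 57 was 1.44e-27. The fit gave every symbol the same standard error, 0.15 on the log2 scale, so its p-values take no account of how much an individual gene varied. For most named genes the deposited signals on each array are given instead, and these were not normalized between arrays. No test of the difference between members and other symbols was made, since genes are not replicates.

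**Figure D1:**
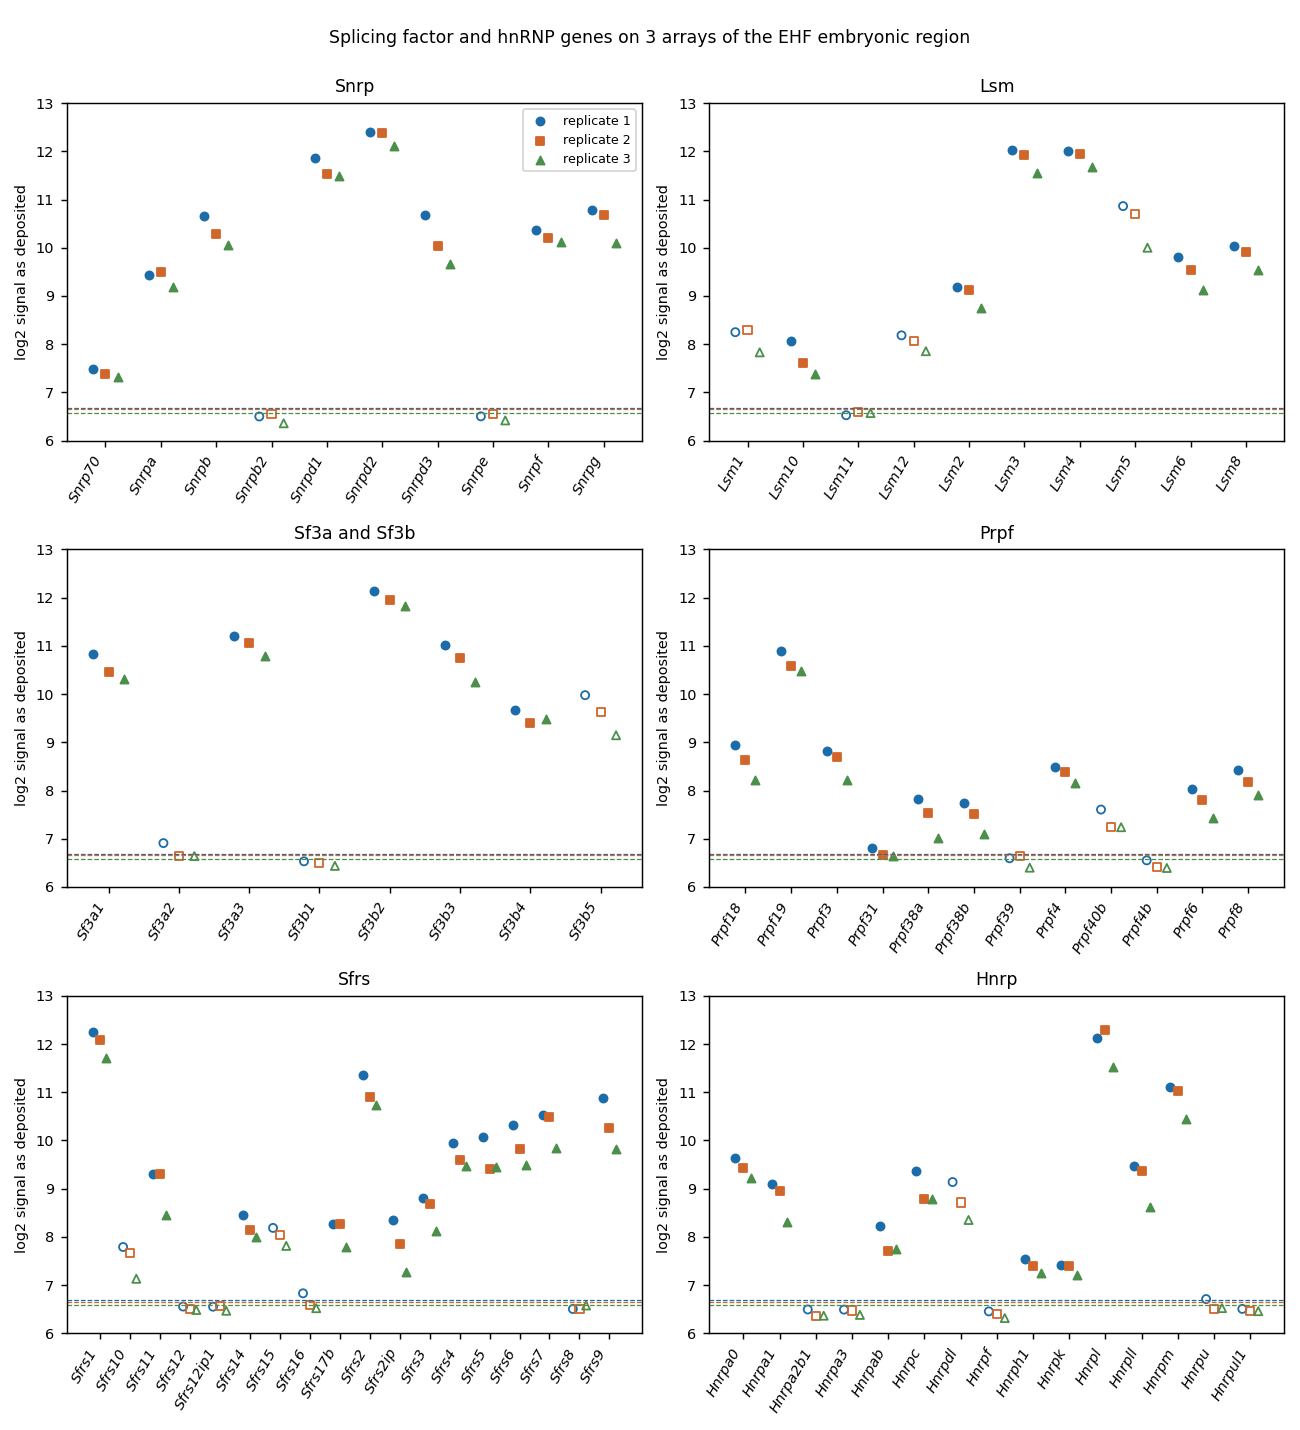
Log2 signal as deposited (vertical axis) of 73 of the 74 symbols, grouped by name, on the 3 arrays (circles, squares, and triangles for replicates 1, 2, and 3). Filled symbols were above background on all 3 arrays, open symbols were not, and dashed lines mark the background level of each array (6.69, 6.66, and 6.58), which 16 of the 24 open genes do not clear on every array.

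**Figure D2:**
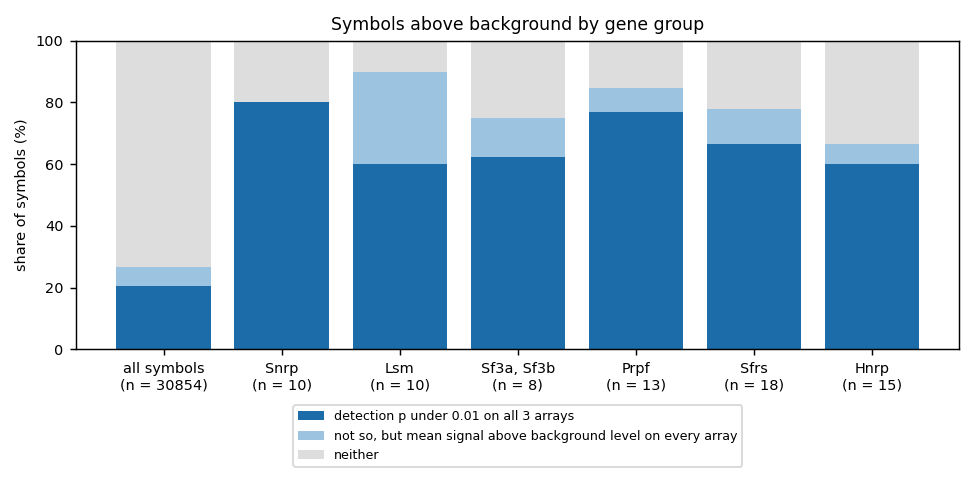
Share of symbols (vertical axis, percent) called above background on all 3 arrays, not called but with every array's signal above its background level, or neither, for all 30854 symbols and for each group of members. The called share was 20.6% for all symbols and between 60% and 80% in the 6 groups.

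The Sm ring, the core shared by most spliceosomal snRNPs, was called for 6 of the 7 symbols listed. *Snrpb*, which encodes SmB, gave 10.66, 10.28, and 10.05 as log2 signals, in the order of replicates 1, 2, and 3 that is kept throughout. *Snrpd1* had signals of 11.85, 11.53, and 11.48, and *Snrpd2* of 12.40, 12.37, and 12.11. All of these lay more than 3 log2 units above the background level of their arrays, which was 6.69, 6.66, and 6.58. *Snrpd3* had signals of 10.68, 10.04, and 9.66, *Snrpf* of 10.36, 10.19, and 10.12, and *Snrpg* of 10.77, 10.67, and 10.10. Replicate 1 was the highest and replicate 3 the lowest array for each of these 6 genes, and most of the symbols called above background had their highest and lowest signals on the same arrays. After normalization the level above background was 7.42 for *Snrpd2* and 5.17 for *Snrpd3* (standard error 0.15, the same for every symbol, n = 3). *Snrpe*, whose protein SmE sits in the same ring, was the exception, with signals of 6.50, 6.55, and 6.42 and detection p-values of 0.528, 0.108, and 0.290. It was measured by 1 probe, and all 3 arrays lay below the background level.

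The U1 snRNP proteins *Snrp70* (U1-70K) and *Snrpa* (U1 protein A) were above background. *Snrp70* had signals of 7.48, 7.39, and 7.31, and *Snrpa* of 9.45, 9.50, and 9.20. *Snrpb2*, which encodes U2B″, the close relative of that protein in the U2 snRNP, had signals of 6.50, 6.55, and 6.36 from 1 probe and was called on none of the arrays. The relatives thus fell on different sides of the threshold on every array, but they were measured by different probes.

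The bases upstream of the annotated start of 3 Sm genes and of *Srsf1* (listed as *Sfrs1* on the arrays) are shown because the Sm genes include the called *Snrpd2* and *Snrpf* and the uncalled *Snrpe*, and because *Srsf1* is the founding SR protein gene. Each line gives the 120 bases before the start, 5′ to 3′ on the strand of the gene, from RefSeq on the build GRCm38.p6. Capitals mark, on either strand, the TATA box string TATAAA, the CAAT box string CCAAT, the GC box string GGGCGG, and the ETS string CCGGAAG.
Snrpd2, chr7:19149718-19149837, plus strand: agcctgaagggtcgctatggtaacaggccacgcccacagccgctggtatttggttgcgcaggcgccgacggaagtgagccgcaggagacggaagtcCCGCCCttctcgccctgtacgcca
Snrpf, chr10:93589659-93589778, minus strand: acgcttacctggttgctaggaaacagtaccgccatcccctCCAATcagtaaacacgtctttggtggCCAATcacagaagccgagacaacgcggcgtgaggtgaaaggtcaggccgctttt
Snrpe, chr1:133610281-133610400, minus strand: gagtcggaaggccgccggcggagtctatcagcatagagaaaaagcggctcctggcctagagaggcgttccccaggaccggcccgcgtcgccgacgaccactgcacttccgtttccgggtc
Srsf1, chr11:88047253-88047372, plus strand: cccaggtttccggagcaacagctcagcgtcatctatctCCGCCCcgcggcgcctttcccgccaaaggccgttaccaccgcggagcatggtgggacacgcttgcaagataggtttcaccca

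None of the 4 stretches held the TATA box string or the ETS string. *Snrpf* held CCAAT at 2 places, *Snrpd2* and *Srsf1* each held GGGCGG on the opposite strand, and *Snrpe* held none of the 4 strings. In windows from 250 bases before to 50 bases after the start, with 1 window a gene, 63 member genes were matched. The CpG dinucleotide was found a median of 24 times in the windows of members, 22 times in those of all genes above background, and 7 times in those of all 27025 genes. CCGGAAG, the ETS string, was found in 31.7% of the member windows, in 21.9% of those of genes above background, and in 9.12% of all. GGGCGG, the GC box, was found in 69.8%, 68.7%, and 35.9%, CCAAT in 47.6%, 39.6%, and 37.9%, and TATAAA in 11.1%, 6.91%, and 14.2%, respectively. CGCGAGA was found in 14.3%, 6.54%, and 2.72%. Of the other strings searched, ATGCGCA and AAGATGG were each found in 3 member windows, the NRF1 palindrome and a long form of the YY1 string each in 1, and the palindromic form of CGCGAGA in 0. Among members, CCAAT was found for 24 of the 43 called and 6 of the 20 uncalled genes, and CGCGAGA for 8 and 1. Calls here are those of the member's own symbol, so an uncalled gene may be called under another symbol. The ETS string was found for 11 and 9 of them, and the GC box string for 28 and 16. These differences were not tested.

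The LSm proteins form related rings, of which LSm2 to LSm8 bind the U6 snRNA in the nucleus. Of the 6 members of that ring listed, 5 were called. *Lsm2* had log2 signals of 9.19, 9.12, and 8.74, *Lsm3* of 12.04, 11.93, and 11.55, and *Lsm4* of 12.01, 11.95, and 11.68. *Lsm6* had signals of 9.80, 9.53, and 9.11, and *Lsm8*, the subunit that distinguishes the nuclear ring, of 10.03, 9.91, and 9.53. All 5 were thus well above the background level on every array, with normalized levels at least 3.94 above it. *Lsm5* had signals of 10.86 and 10.71 on replicates 1 and 2 and a mean of 10.52 (SD 0.46, n = 3), also above the background level, and yet its detection p-values were 0.0820, 0.269, and 0.159. Its row is an average over at least 2 probes, so the signal shows that at least 1 of them was above background while the combined detection p did not pass. The limma test placed *Lsm5* 5.59 above background, between 3.87 and 5.90 over 7 alternatives.

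Outside the U6 ring, the LSm genes were less uniform. *Lsm10*, which replaces an SmD protein in the U7 snRNP of histone pre-mRNA processing, was called, with signals of 8.06, 7.60, and 7.38. *Lsm11*, its partner in that ring, was not, with signals of 6.53, 6.59, and 6.57 and detection p-values of 0.396, 0.0363, and 0.0107. *Lsm1*, which takes the place of LSm8 in the cytoplasmic ring that acts in mRNA decay, had signals of 8.25, 8.29, and 7.83 and detection p-values of 0.0158, 0.0282, and 0.0297. *Lsm12* passed on replicates 1 and 2 and had a detection p of 0.0291 on replicate 3. Both *Lsm1* and *Lsm12* have several probes, and their signals cleared the background level of each array.

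Of the 8 symbols that begin with *Sf3a* or *Sf3b*, 5 were called. In SF3a, *Sf3a1* had log2 signals of 10.83, 10.47, and 10.32 and *Sf3a3* of 11.20, 11.05, and 10.79. *Sf3a2* lay at the threshold, with signals of 6.91, 6.64, and 6.64 and detection p-values of 0.00107, 0.0128, and 0.00321, so replicate 2 alone kept it from being called. The limma test did not call it either, with a level of 0.25 above background and an adjusted p of 0.164, but without replicate 3 it did (0.30, adjusted p from limma 0.0437).

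In SF3b, *Sf3b2* had signals of 12.14, 11.96, and 11.83, *Sf3b3* of 11.02, 10.75, and 10.24, and *Sf3b4* of 9.68, 9.41, and 9.49. All were far above background on every array. *Sf3b1*, which encodes the large subunit that clamps the branch point and is often mutated in blood cancers, had signals of 6.53, 6.50, and 6.44 from at least 2 probes and detection p-values of 0.394, 0.166, and 0.155. *Sf3b5* had signals of 9.98, 9.63, and 9.15 averaged over at least 3 probes and detection p-values of 0.0259, 0.0121, and 0.0244. *Sf3b1* was therefore near background by signal as well as by detection p, whereas *Sf3b5* was so only by detection p.

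The PRPF genes were called in 10 of 13 cases. *Prpf8*, whose protein lies at the catalytic centre, had log2 signals of 8.43, 8.17, and 7.90. *Prpf19*, the ubiquitin ligase of the Prp19 complex, had signals of 10.90, 10.58, and 10.48, and *Prpf3*, a tri-snRNP protein, of 8.82, 8.69, and 8.22. These arrays did not overlap the background level. *Prpf31*, another tri-snRNP protein, mutated like *Prpf3* and *Prpf8* in retinitis pigmentosa, passed the detection threshold on every array although its signals were 6.81, 6.67, and 6.64. It is the only member called by detection p and not by limma, with a level of 0.19 above background and an adjusted p from limma of 0.36. *Prpf40b*, a U1-associated factor, had signals of 7.61, 7.25, and 7.24 and passed only on replicate 1, with detection p-values of 0.00057, 0.122, and 0.0650. *Prpf39* and the kinase gene *Prpf4b* were near background, with mean signals of 6.55 (SD 0.13, n = 3) and 6.46 (SD 0.08, n = 3).

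Of the 18 symbols that begin with *Sfrs* and a number, 12 were called. All 8 genes of SR proteins proper, *Sfrs1* to *Sfrs7* and *Sfrs9*, had a detection p of 0 on each array. *Sfrs1* (SRSF1) had log2 signals of 12.25, 12.08, and 11.72, *Sfrs2* (SRSF2) of 11.36, 10.91, and 10.73, and *Sfrs3* (SRSF3) of 8.80, 8.68, and 8.13. The other 5 had mean signals between 9.65 and 10.32. Of the 10 remaining symbols, which stand for SR-related or merely interacting proteins, 4 were called, *Sfrs11*, *Sfrs14*, *Sfrs17b*, and *Sfrs2ip*. *Sfrs10*, an older name of the Tra2 beta gene, and *Sfrs15* had signals that cleared the background level of each array, with means of 7.53 (SD 0.35, n = 3) and 8.01 (SD 0.19, n = 3), and detection p-values of at least 0.237 and 0.255 on every array. *Sfrs8*, *Sfrs12*, *Sfrs12ip1*, and *Sfrs16* were not called on any array, with mean signals between 6.51 and 6.65.

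Of the hnRNP genes, 9 of 15 symbols were called. *Hnrpl*, which binds CA-rich sequences, had log2 signals of 12.13, 12.30, and 11.52, and its paralog *Hnrpll*, known for exon choice in lymphocytes, of 9.46, 9.37, and 8.61. *Hnrpm* had signals of 11.11, 11.03, and 10.45, *Hnrpc*, which binds uridine tracts, of 9.38, 8.79, and 8.79, and *Hnrpk*, which binds cytidine-rich sequences, of 7.42, 7.39, and 7.22. All of these had a detection p of 0 on each array. *Hnrpa1*, the classical antagonist of SRSF1, had signals of 9.10, 8.96, and 8.31 averaged over at least 4 probes, and was called only narrowly on replicate 3, with a detection p of 0.00962. *Hnrpdl*, also with several probes, missed the threshold there (0.0146) after passing on replicates 1 and 2. *Hnrpu*, which encodes the scaffold attachment factor SAF-A, passed on replicate 1 alone, with signals of 6.71, 6.51, and 6.52. The symbols *Hnrpa2b1*, *Hnrpa3*, *Hnrpf*, and *Hnrpul1* passed on no array. *Hnrpa2b1* had signals of 6.50, 6.36, and 6.37, all below the background level.

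The 24 members that were not called were of different kinds. For 16 the signal was at or below the background level on at least 1 array, with mean signals between 6.39 and 6.73. They are *Hnrpa2b1*, *Hnrpa3*, *Hnrpf*, *Hnrpu*, *Hnrpul1*, *Lsm11*, *Prpf39*, *Prpf4b*, *Sf3a2*, *Sf3b1*, *Sfrs8*, *Sfrs12*, *Sfrs12ip1*, *Sfrs16*, *Snrpb2*, and *Snrpe*, and 10 of them have 1 probe. For the other 8, *Hnrpdl*, *Lsm1*, *Lsm5*, *Lsm12*, *Prpf40b*, *Sf3b5*, *Sfrs10*, and *Sfrs15*, the averaged signal was above the background level of each array, with means between 7.36 and 10.52. All 8 were among the 38 members with several probes or an unsure number, 21.1% of them. The same was seen for 20.8% of all symbols of that kind, a share close to that of the members. With 1 probe, 26 of 36 members (72.2%) were called, against 20.8% of all such symbols, and with several probes or an unsure number 24 of 38 (63.2%), against 20.1%. Of the 24, 19 passed on no array and 5 on 1 or 2 arrays.

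Several of the uncalled members have a further row in the table, because the same gene is listed under another symbol. Through the RefSeq gene table, 73 of the 74 members were matched to a gene, and 18 of these genes had 19 other rows. Whether the other row measures the same transcripts is not known, since no probe positions were used, and signals of such rows are given side by side without ranking. *Hnrpf* was uncalled, and the row named *Hnrnpf* was called, with log2 signals of 7.91, 7.52, and 7.41. *Hnrpa2b1* was near background, and the row *Hnrnpa2b1*, averaged over at least 4 probes, had signals of 8.84, 8.45, and 8.44, which cleared the background level of each array, but with detection p-values of 0.207, 0.322, and 0.164. *Sfrs8* was uncalled, and the row 1190005N23Rik of the same gene, *Sfswap*, was called, with signals of 7.11, 7.10, and 6.68. The row 2600001B17Rik of *Lsm12* was called too. *Hnrpc* and *Hnrnpc* were both called, the latter with signals of 13.89, 13.81, and 13.66, and so were *Hnrpab* and *Hnrnpab*.

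The opposite was found for 6 genes, whose member row was called and whose other row was not. For *Sfrs1* the row 5730507C05Rik had signals of 6.48, 6.51, and 6.25, and for *Sf3a3* the row 4930512K19Rik had signals of 6.52, 6.43, and 6.33. For *Hnrpk* the row *Hnrnpk*, averaged over at least 2 probes, had signals of 9.17, 8.84, and 8.64. These cleared the background level of each array, and the row was uncalled by its detection p-values of 0.00179, 0.0204, and 0.0969. *Sfrs11* was called together with 1 of its other 2 rows. Rows of the same gene thus disagreed for 10 of the 18 genes (55.6%). They disagreed for 32.5% of the 1840 genes with over 1 row in the table, most of which (1084) had no row called. Rows can disagree only where at least 1 is called, so these percentages do not compare like with like. Among member genes with a called row, rows disagreed for 10 and were all called for 5. Over the whole table the numbers were 598 and 158. Counting a gene as above background when any of its rows was called raised the number from 50 to 53 of the 73 matched genes. *Snrpe*, *Snrpb2*, and *Sf3b1* had no further row.

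**Figure D3:**
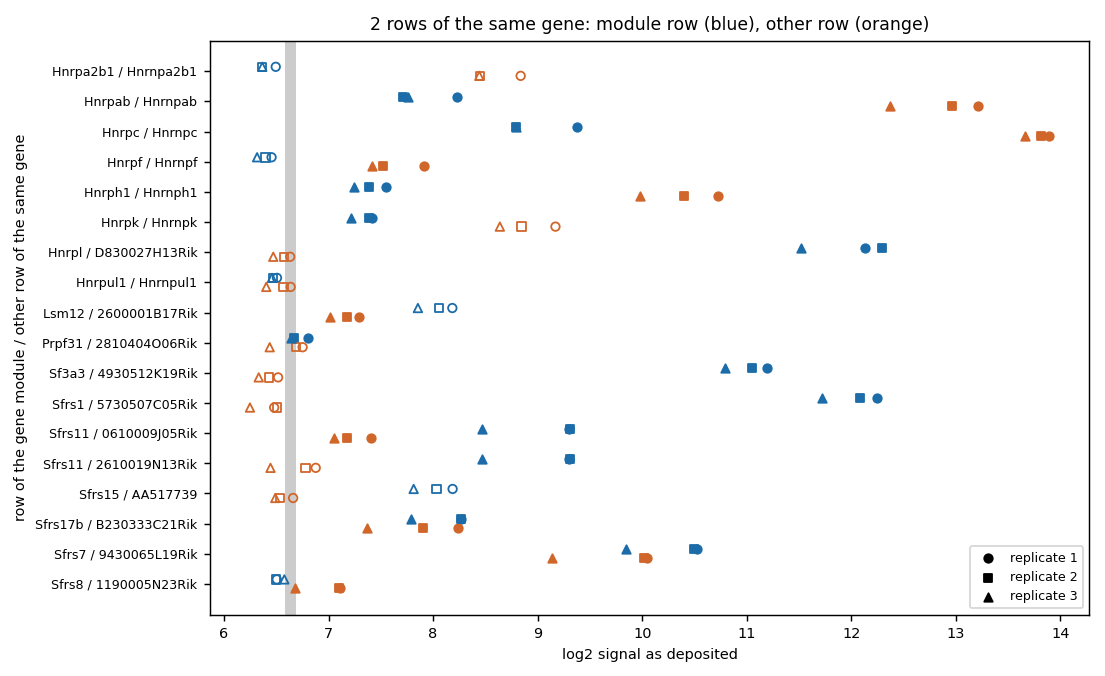
Log2 signal as deposited (horizontal axis) for 18 of the 19 pairs of rows that stand for the same gene, the row chosen here in blue and the other row in orange, with filled symbols for rows above background on all 3 arrays. The grey band spans the background levels of the arrays, 6.58 to 6.69. *Hnrpf*, *Lsm12*, and *Sfrs8* are open where the other row of the gene is filled.

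Other genes of the splicing pathway, from a list of factors outside the name rule, were called for 51 of 103 genes (49.5%), against 20.6% of all symbols. The list was made with earlier results of these data known. The limma test passed 70 of the 103 genes, against 25.7% of all symbols. Other snRNP proteins were called for 7 of 9 genes, among them *Txnl4a*, a U5 protein, with a mean log2 signal of 10.68 (SD 0.30, n = 3). The hnRNP-like genes were called for 5 of 6, among them *Pcbp1* and *Raly*. Factors that recognize the 3′ splice site or branch point were called for 3 of 7, *U2af1*, *Sf1*, and *Phf5a*, and the limma test passed 5. The kinases of SR proteins were called for 3 of 7, *Srpk1*, *Clk2*, and *Clk4*. The uncalled *Clk1* and *Clk3* had mean signals of 7.76 and 7.53. Both were above the background level of each array and passed the limma test. The muscle-enriched *Srpk3* had a mean signal of 6.41 (SD 0.18, n = 3) and *Srpk2* of 6.64 (SD 0.13, n = 3). Prp19-related and step factors were called for 8 of 16 genes, helicases and a GTPase for 7 of 14, and exon junction and SR-related genes for 6 of 12. Genes of snRNP assembly were called for 4 of 8, and paraspeckle and FET genes for 2 of 5. Uncalled genes near background also included *Ewsr1*, *Cwc15*, *Rbm22*, and *Nono*, with mean signals of 6.39, 6.40, 6.48, and 6.53.

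Of the regulators of alternative splicing, 6 of 19 (31.6%) were called, and the limma test passed 10. The 6 were *Ptbp1*, the repressor of neuronal exons, *Rbm9* (now *Rbfox2*), *Rbm35a* (now *Esrp1*), a factor of epithelial splicing, *Khdrbs1*, *Khdrbs3*, and *Tia1*. *Ptbp1* had signals of 10.66, 10.57, and 10.41, and *Rbm35a* of 10.44, 10.13, and 9.66. The neuronal factors *Nova1* and *Nova2* were near background, with mean signals of 6.44 (SD 0.06, n = 3) and 6.46 (SD 0.10, n = 3), as was *Mbnl3* at 6.44 (SD 0.05, n = 3). *Ptbp2*, the neuronal paralog of *Ptbp1*, had signals of 6.79, 6.68, and 6.52, the last below the background level of its array. It passed on replicates 2 and 3 and had a detection p of 0.0112 on replicate 1. The limma test did not call it, with a level of 0.016 above background.

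The arrays were compared over the 50 called members. As deposited, the signal was highest on replicate 1 for 47 of them and lowest on replicate 3 for 47. The same order was found for 84.9% and 93.4% of all 6357 symbols called, and it followed the medians of the arrays. After background correction and quantile normalization the order was lost. Replicate 1 was then the highest array for 12 members, replicate 2 for 11, and replicate 3 for 27, where the shares over all called symbols were 29.1%, 29.4%, and 41.2%. The median difference from the mean of the other arrays came to -0.03, -0.03, and 0.11 for replicates 1, 2, and 3 on the log2 scale, and over all called symbols to -0.01, -0.01, and 0.03. With deposited signals centred on the array medians, members were 0.28 higher on replicate 1 and 0.31 lower on replicate 3 (medians 0.28 and -0.31), beside 0.22 and -0.26 for all called symbols, so the sign of these differences depended on the scaling. Relative to all called symbols, the median of the members differed by at most 0.08 under both scalings, a difference that was not tested. The visceral endoderm markers, called on all 3 arrays, had medians of -0.11, 0.55, and -0.24 on the normalized scale. The markers of the embryonic region had medians of 0.27, -0.22, and -0.08, and those of the extraembryonic ectoderm of 0.10, 0.09, and -0.11. In RNA of whole embryonic regions, fewer cells of a type and less RNA per cell cannot be told apart, and the part of tissue content in the members' differences was not tested.

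**Figure D4:**
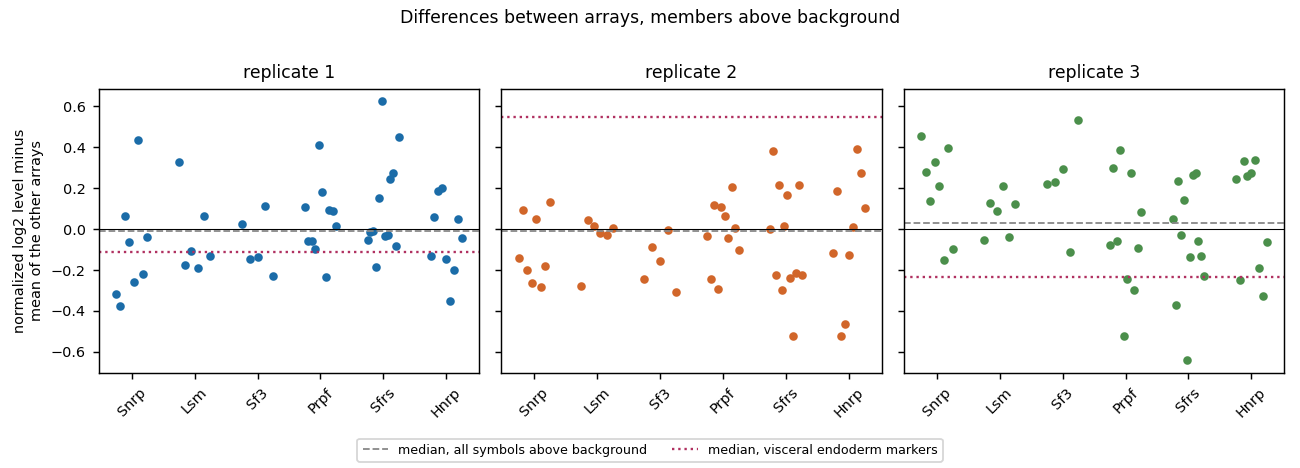
Normalized log2 level of each of the 50 called members minus the mean of the other arrays (vertical axis), for replicates 1, 2, and 3 and by gene group. The dashed line is the median of all symbols above background and the dotted line that of the visceral endoderm markers, which lies at 0.55 on replicate 2, above all 50 members there.

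The spread between arrays was close to that of other called symbols. The median SD of the normalized level was 0.16 for the 50 called members and 0.17 for all 6357 called symbols. Single members ranged from 0.03, for *Sfrs1*, to 0.42, for *Sfrs2ip*. *Sfrs2ip* (now *Scaf11*), whose protein interacts with SR proteins, had log2 signals of 8.36, 7.85, and 7.27 as deposited. *Prpf38a*, needed for activation of the spliceosome, had signals of 7.83, 7.53, and 7.01 and an SD of 0.32. *Sf3b4* (0.31), *Hnrpab* (0.31), and *Sfrs5* (0.30) followed, and these 3 genes were lowest on replicate 2. *Hnrpab* had signals of 8.23, 7.71, and 7.76, and *Sfrs5* of 10.08, 9.40, and 9.46. Each array measured a member with between 22 and 67 beads per probe, averaged over its probes. For the 26 called members with 1 probe, the error over beads was a median of 6.67% of the linear intensity, or 0.10 on the log2 scale. The SD of the normalized level between arrays exceeded the gene's own bead error for 21 of them. The SD was taken after background correction and the bead error before it, so they are not on the same scale.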

How the data were processed

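The authors deposited, for 3 Illumina Mouse-6 arrays, log2 signals per gene symbol that were not normalized between arrays, together with mean bead numbers. They also deposited the detection p-value and the standard error over beads on the linear intensity scale. Partek is named in the submitters' processing notes; the normalization and array annotation are not given in the sources used here. The members and lists were chosen with earlier results of these data known.

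Symbols were taken to have 1 probe where bead numbers were whole and detection p-values were multiples of 1 in 936 on all arrays (tolerance 0.002 of a step), which held for 21986 symbols. Other probe numbers are lower limits. For levels, signals were corrected with the normexp model fitted to these symbols, given an offset of 16, and quantile normalized. The background level was the lowest level of a 1-probe symbol with a detection p above 0 and under 0.01. Level minus background was tested with limma (one-sided) over all 30854 symbols with Benjamini-Hochberg adjustment, after a test on simulated data. Named genes were the Sm ring, SF3, the main SR, hnRNP, PRPF and LSm genes, paralog pairs, every member not called, and the 5 with the largest SD. *Snrpn* and *Lsm7*, which the rule for named genes also lists, are not analysed here, and 1 member is counted but not reported here. RefSeq (GRCm38.p6) served to match older symbols, and 10 letter strings, chosen after the data had been seen, were searched on both strands of its promoter windows. Python 3.11.15, numpy 2.4.6, pandas 2.3.3, R 4.3.3, and limma 3.58.1 were used.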

Additional observations from a re-analysis of the deposited data

How the results depend on the processing

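The count of 50 called members was 45 to 55 with detection thresholds of 0.001 and 0.05, 53 and 55 with detection on at least 2 and at least 1 array, 57 in the limma test, and 58 when the averaged signal alone had to exceed the background level, a setting chosen after seeing the data. Without a replicate it was 50 to 52. Restricted to symbols with 1 probe it was 26, because only 36 members have 1 probe. All symbols called numbered 6357, and 10172 with detection on at least 1 array, a looser condition by construction, and with 1 replicate left out 6524 to 7427. The other splicing genes numbered 51, and 42 to 76 over the alternatives. The limma count of 57 members was 52 to 58 over its alternatives, 52 when only symbols detected on at least 1 array were tested, because members such as *Lsm5* then drop out.

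Of 453 alternative levels of 59 genes, 448 kept their sign and their side of the threshold. *Prpf31* changed from 0.19 to -0.0010 with a higher background level. *Sfrs16* changed from -0.032 to 0.032 with median scaling, and was between -0.188 (without replicate 1) and 0.0967 (without replicate 3) with 1 replicate left out (0.0434 without replicate 2), never past the threshold, and the cause was not tested. The median difference of an array over the members, relative to all called symbols, stayed between -0.08 and 0.09 under every alternative. It changed sign for replicates 1 and 3 when deposited signals were centred on their medians (0.06 and -0.04), and for replicate 1 it was 3.87e-05 without replicate 3. No paired analysis was possible because only 1 group was measured. The calls are limited by how far a signal stands above background, and a symbol averaged over several probes can hide a probe above background.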
